A study of Mus musculus with 6 samples.

Results

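The transcripts described here are those of pachytene and diplotene spermatocytes (P/D spermatocytes), the germ cells in the long late part of the first meiotic prophase. They come from 3 samples labelled as Pachytene/Diplotene Spermatocytes of testis, among 6 samples, and the other 3 are round spermatids (RS) of such mice, used here only to place abundances. Each sample held mRNA pooled from 3 adult C57BL/6J/B6 male mice, for which the labels name no treatment or altered allele, and the cells were sorted by flow cytometry after staining with Hoechst for DNA and PI for dead cells. By the study's microscopy the gate was not pure, and about as many of its cells were other cells as were P/D spermatocytes, so every value below is one of this mixed population. The 3 extracts carried barcodes and were sequenced together as 1 direct RNA library, so the spread between them holds no difference between runs. The members were the contigs, that is the annotated transcripts or repeat elements to which reads were aligned, with 20 or more reads in every one of the 3 samples. There were 2278 of 12114 contigs, made up of 2259 annotated transcripts of 1943 named genes and 19 contigs with names of repeat elements. The 92 contigs just inside that limit, with 20 reads in their lowest sample, had a median tail of 108 nt, and the 106 just outside it, with 19, had one of 111 nt.

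A poly(A) tail is added to the 3′ end of nearly every mRNA in the nucleus, binds poly(A)-binding protein, and is shortened in the cytoplasm by deadenylases or extended again by poly(A) polymerases. During meiotic prophase male germ cells synapse and recombine their chromosomes, silence the sex chromosomes, and already transcribe many mRNAs that are translated only after meiosis, often kept in the meantime in RNA granules. In direct RNA sequencing a native molecule is read through a pore from its 3′ end, so each read gives the tail of 1 molecule. Tails are given in nt, and abundance in RPM, the reads of a contig scaled to a common number of reads per sample, which counts molecules and was not divided by transcript length.

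The label was checked against marker genes. Sycp3, a lateral element protein of the synaptonemal complex, had 83, 110 and 118 reads in replicates 1, 2 and 3, and Piwil1, the PIWI protein of pachytene piRNAs, had 115, 127 and 113. Pou5f2, Cks2 and Hmgb2 lay between 67 and 214 reads, so all 5 markers were present in every sample. The 10 round spermatid markers summed to 185, 247 and 144 reads, of which Spata16 alone gave 125, 161 and 103. The 10 elongating spermatid markers, among them the protamines and transition proteins that replace histones in sperm chromatin, summed to 631, 674 and 522 reads. Reads of these marker genes thus stood beside those of the 5 P/D markers, which summed to 521, 611 and 594 reads. Whether they came from spermatids in the gate or from spermatocytes was not tested. Of the leptotene and zygotene list only Spo11 had a contig besides Meioc, with 20, 32 and 39 reads for the first and 24, 42 and 31 for the second. The spermatogonia, Sertoli and Leydig lists each stayed at or below 7 reads per sample. None of the immune, peritubular and endothelial markers had a contig. In sorted bulk samples fewer cells of a type and less RNA per cell cannot be told apart.

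The deposited tables held 244004, 305950 and 271326 reads in replicates 1, 2 and 3 after the authors' filter on contigs with few reads, and RPM refers to these totals. The 2278 contigs took 76.8, 76.0 and 77.7% of them, and the 10 contigs with most reads only 5.89, 5.79 and 6.30%, so the P/D transcriptome was spread over many transcripts. No read occurred in more than 1 sample. A mean over 20 reads has a wide error, since the SD of tails over the reads of a contig had a median of 57.1 nt.

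Over all reads, tails of P/D spermatocytes peaked near 60 nt and had a broad shoulder above 120 nt. The mean tail was 109, 107 and 107 nt in replicates 1, 2 and 3, or 108 ± 1.33 nt (SD, n = 3), and the median was 94.1, 92.3 and 91.2 nt. Reads with tails of 30 to 120 nt made up 60.1, 60.3 and 62.9% and those of 120 to 210 nt 30.3, 30.02 and 28.5%. The short class was thus about as large in each replicate, at 61.1% ± 1.54 (SD, n = 3), and the long class at 29.6% ± 0.938. Tails under 30 nt took 2.75, 3.55 and 2.40%, and tails of 210 nt and more took 6.87, 6.16 and 6.20%. In bins of 3 nt the fullest bin started at 57 nt in replicates 1 and 2 and at 60 nt in replicate 3. The bin starting at 120 nt still held 1.32, 1.33 and 1.38% and the one starting at 159 nt 1.16, 1.13 and 1.06%, a smaller fall than that from the peak to 120 nt. Within the range of 30 to 210 nt no bin above 120 nt was fuller than the first one at 120 nt.

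**Figure D1:**
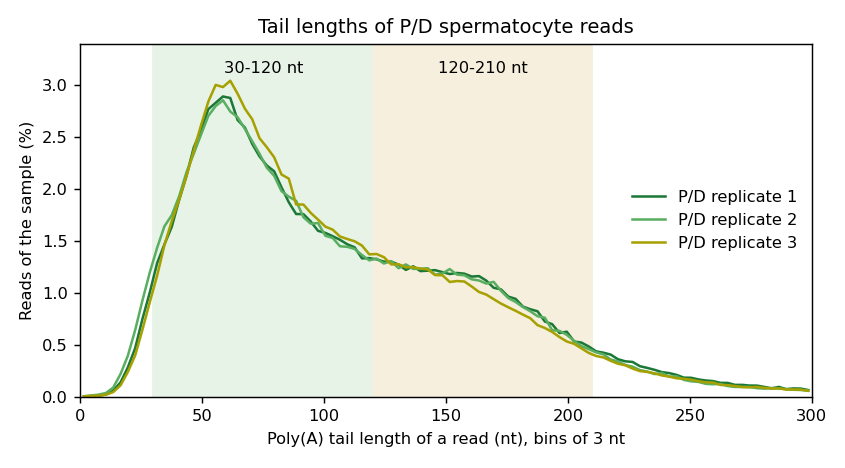
Share of reads (vertical axis, percent of the sample's reads) by poly(A) tail length (horizontal axis, nt, bins of 3 nt) in the 3 P/D samples, with 1 line per sample and the 2 tail classes shaded. The lines of the 3 samples peak between 57 and 63 nt and level off between 120 and 160 nt.

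Mean tails differed more between transcripts than between samples. Mean tails over the 2278 contigs ran from 54.0 to 219.97 nt, with a median of 106 nt, and the lower and upper quartiles were 94.7 and 119 nt. The SD between contigs was 19.6 nt, whereas the SD of 1 contig between the 3 samples had a median of 6.54 nt. That error shrank with depth, from 9.42 nt for contigs with under 30 reads in their lowest sample to 3.41 nt for the 420 contigs with 100 or more. Pearson's r of mean tails across contigs between pairs of samples was 0.808, 0.817 and 0.81 over all contigs and 0.948, 0.949 and 0.949 over those with 100 reads, as a description across contigs of 1 library. The short class was the larger one in all 3 samples for 1800 contigs and the long class for 98, while for 380 contigs the larger class differed between samples or was tied.

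To ask which transcripts carried longer or shorter tails than the typical one, the mean tail of each contig was set against the median over contigs of its own sample with limma, with Benjamini-Hochberg adjustment over all 2278 contigs and a threshold of 0.05. The test called 659 contigs longer (28.9% of those tested) and 573 shorter (25.2%). Among contigs with 100 reads in every sample 71.9% were called in either direction. The split depended on the reference value, and 53.5% of calls were longer. Against the median over all reads of the sample, which lies below the median over contigs, 1269 were longer and 149 shorter, that is 89.5% of calls longer, with the median difference moved by 13.3 nt. Longer and shorter below therefore mean relative to the median P/D transcript only. When only the 1671 contigs with higher RPM in P/D spermatocytes than in RS were tested, 497 were longer and 435 shorter.

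The longest tail of an annotated transcript belonged to Ptpn20, a tyrosine phosphatase gene (chr14:33589207-33640754, plus strand, GRCm38). Its mean was 244, 175 and 218 nt over 28, 35 and 27 reads, a wide spread between replicates. The mean lay 107 ± 8.57 nt (SE) above the sample median (limma, adjusted p = 3.7e-09). This SE borrows variance from other contigs and is smaller than the 3 values of Ptpn20 alone would give. Of its reads 52.8% had tails of 210 nt or more. The uncharacterised 1700006A11Rik was tighter, at 184, 188 and 185 nt with 50.5% of reads in the long class. Next came Dut, the dUTPase that keeps uracil out of DNA, at 175 ± 17 nt, Nemp1, a nuclear envelope protein gene, at 173 ± 14.2 nt, and Gmcl1, a germ cell-less homolog, at 172 ± 1.83 nt. Ccdc7b followed at 172 ± 8.07 nt, and Boll, the ancestral member of the DAZ family of RNA-binding proteins, at 172 ± 16.9 nt. Arhgap20 had 169 ± 3.07 nt, Mars2, the mitochondrial methionyl-tRNA synthetase, 169 ± 9.39 nt, and an isoform of Fkbp1a 167 ± 5.14 nt. From Dut to Fkbp1a the means lay within the spread between samples of their neighbours, so their order is not firm. All of these transcripts had higher RPM in P/D spermatocytes than in RS.

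Smcp and Adam3 were the exceptions in abundance among the 12 longest. Smcp, which encodes a cysteine-rich protein of the sperm mitochondrial capsule, had a mean tail of 167, 164 and 172 nt over 43, 49 and 23 reads, and 89.3% of its reads fell in the long class. Its abundance was 140.4 ± 48.8 RPM here and 1319 in RS. Adam3, a sperm surface protein needed for migration into the oviduct, had 176, 169 and 167 nt over 153, 225 and 180 reads, with 675 ± 55.2 RPM here and 1081 in RS.

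Among transcripts with 100 reads in every sample, where the error is smallest, Adam3 was followed by Rnls, which encodes renalase, at 175, 161 and 162 nt (adjusted p = 7.0e-12). Ccdc38, a coiled-coil protein gene of the sperm flagellum, had 165.4, 161 and 153 nt and the marker Piwil1 157, 167 and 155 nt. Slc2a3, the high-affinity glucose transporter, had 163, 151 and 149.6 nt in its more abundant isoform, and Tcfl5, a transcription factor of spermatocytes, 148, 149 and 146 nt. The values of all these transcripts lay above 145 nt in each sample. Adam3 and Ccdc38 apart, each had higher RPM in P/D spermatocytes than in RS, with 436 ± 46.4 against 79.1 RPM for Rnls and 434 ± 32.1 against 26.9 for Piwil1. Ccdc38 had nearly equal values of 413 ± 38.5 and 409 RPM.

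The shortest tails were those of mRNAs transcribed from the mitochondrial genome, where a mitochondrial poly(A) polymerase adds the tail and completes the stop codon of some mRNAs. All 10 measured mRNAs were called shorter, with a median of 60.6, 60.3 and 62.1 nt. The shortest was mt-Nd1, a subunit of respiratory complex I (chrM:2751-3707, plus strand), at 53.6, 53.5 and 54.9 nt and -51.8 ± 1.99 nt (SE) from the sample median (adjusted p = 8.3e-14). The other complex I mRNAs mt-Nd2, mt-Nd5, mt-Nd4 and mt-Nd3 had 55.8 ± 2.74 nt, 56.3 ± 1.28 nt, 59.2 ± 0.979 nt and 61.2 ± 1.32 nt. The cytochrome oxidase mRNA mt-Co2 had 60.8 ± 0.623 nt and mt-Cytb 65.6 ± 2.07 nt, and the longest of the group, mt-Co3, only 71.3 ± 0.838 nt. The order of neighbours such as mt-Nd2 and mt-Nd5, or mt-Co2 and mt-Nd3, was within the spread between samples, but mt-Nd1 and mt-Co3 did not overlap. Reads of 120 to 210 nt made up at most 1.403% of any of them. Nuclear copies of mitochondrial genes on chromosome 1 had similar values. Gm28661 had 61.9 ± 1.95 nt and is 100% identical to mt-Co2, and Gm28438 had 59.4 ± 3.08 nt and is 99.7% identical to mt-Nd3, so their reads cannot be assigned with certainty.

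Among other nuclear transcripts the shortest tails were those of cytosolic ribosomal proteins. Rps19 (chr7:24884371-24889806, plus strand) had 55.1, 56.5 and 63.5 nt over 84 or more reads per sample (adjusted p = 1.8e-10), Rps28 63.1, 67.7 and 62.7 nt and Rpl19 63.7, 63.1 and 67.1 nt. All 3 lay more than 35 nt below the sample median in each sample. Tails under 30 nt made up 12.9% of Rps28, 12.6% of Rps19 and 7.23% of Rpl19 reads, against 1.67% for mt-Nd1, and the median over all measured ribosomal protein transcripts was 5.52%.

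The annotated 3′ ends are shown for the 3 longest and the 2 shortest nuclear protein-coding transcripts with 100 reads per sample and for the most abundant pair of mitochondrial mRNAs. Where the reads themselves end, and so where the tails are attached, was not examined. Each line is the last 30 nt of the annotated transcript (GENCODE vM21, GRCm38), 5′ to 3′ in DNA letters, with the canonical poly(A) signal AATAAA in capitals where it occurs.
Adam3: taaagtctatggctgacagtgtacagatgc
Rnls: ttcagttctaAATAAAtaacagttactacc
Ccdc38: tcatggatAATAAAgctcgtttcaaagtta
Rps28: tgcaactgttaAATAAAgcatttatattaa
Rpl19: aagcctttgtctgttgccctcttgtttagc
mt-Co1: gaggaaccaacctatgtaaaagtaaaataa
mt-Co2: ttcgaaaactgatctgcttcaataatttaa
The nuclear stretches lie at chr8:24677225-24677254 (minus strand), chr19:33137747-33137776 (minus), chr10:93584298-93584327 (plus), chr17:33823050-33823079 (minus) and chr11:98030463-98030492 (plus), and the mitochondrial ones at chrM:6843-6872 and chrM:7667-7696 (plus). The signal was in the window of Rnls and Ccdc38 among the long and of Rps28 among the short, so the hexamer within these 30 nt did not separate the long from the short transcripts printed here. The mitochondrial stretches are coding sequence up to the stop codon.

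**Figure D2:**
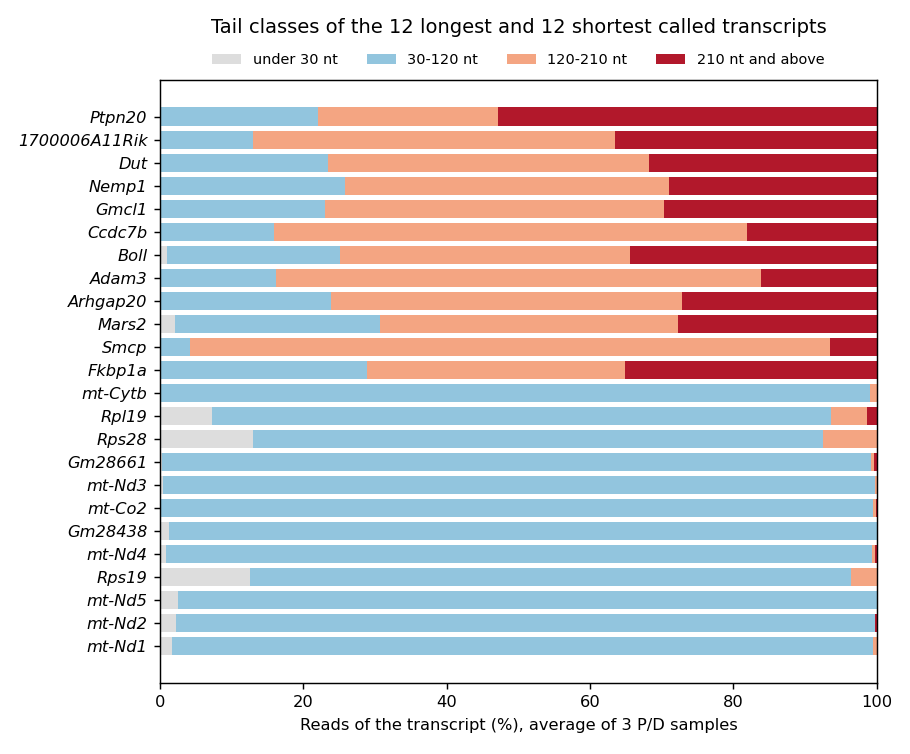
Share of reads (horizontal axis, percent, average of 3 P/D samples) in 4 tail length classes for the 12 annotated transcripts with the longest and the 12 with the shortest mean tails among those called. Smcp stands out among the long ones with 89.3% of reads at 120-210 nt, Ptpn20 with 52.8% at 210 nt and above, and every short transcript has most reads at 30-120 nt.

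Transcripts also differed in how widely their tails were spread over single molecules. With 100 reads in every sample, the SD over reads was smallest for mt-Nd1 at 13.5 nt, mt-Co2 at 13.8 nt and mt-Nd3 at 14.0 nt. It was largest for Shcbp1l at 82.1 nt, Piwil1 at 81.1 nt and Adam2 at 79.2 nt. Shcbp1l, a spindle-associated protein gene of male meiosis, had a mean tail of 126, 126 and 137 nt, with 47.5% of reads at 30 to 120 nt and 17.3% at 210 nt or more. A long mean could come with a wide or a narrow spread, as in 2 single transcripts. In Piwil1, 34.5% of reads were in the short class and 28.5% were at 210 nt or more. Smcp, with fewer than 100 reads per sample, had a narrow long peak with an SD over reads of 32.4 nt. The 5 P/D markers had a median SD over reads of 62.5 nt and the 6 measured elongating spermatid markers one of 45.4 nt.

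The most abundant transcript was Ldhc, the germ-cell lactate dehydrogenase, with 9899.8 ± 362 RPM and a mean tail of 106, 107 and 106 nt without a call (adjusted p = 0.75). Then came mt-Co1 with 8396 ± 1044 RPM, Ubb, a polyubiquitin gene, with 8149 ± 261, and mt-Co2 with 6876 ± 1082. Tcte3, a dynein light chain gene, had 6495 ± 125, and the closely related alpha-tubulin genes Tuba3b and Tuba3a had 4982 ± 166 and 4151 ± 70.0, which near-identical copies may share. Meig1, needed for the manchette of spermatids, Ropn1l, a flagellar protein gene, and Gstm5, a glutathione transferase of germ cells, completed the 10 with 4172 ± 338, 3433 ± 62.5 and 3295 ± 160.1. Among them 5 were called shorter, namely mt-Co1, mt-Co2, Ubb (92.7 ± 2.09 nt), Tcte3 (91.0 ± 1.56 nt) and Meig1 (102 ± 2.92 nt). Gstm5, Ropn1l, Tuba3b and Tuba3a were called longer, at 125 ± 1.51 nt, 111 ± 2.83 nt, 110.2 ± 2.11 nt and 109.7 ± 2.94 nt. Meig1 and Tuba3a lay within 5 nt of the median with adjusted p of 0.044 and 0.04. Of all contigs 28.9% were called longer and 25.2% shorter. With 100 reads in every sample, which each of these 10 had, 71.9% were called in either direction.

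**Figure D3:**
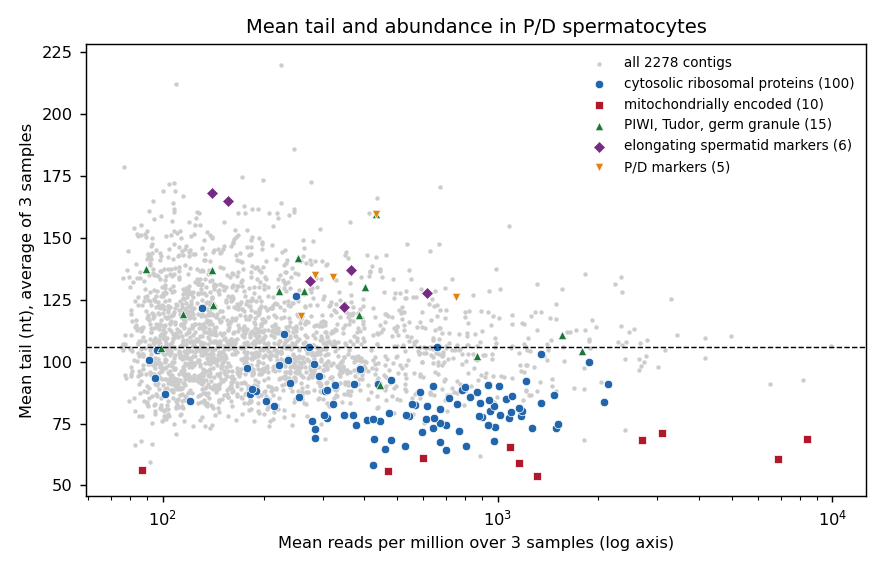
Mean tail (vertical axis, nt, average of 3 P/D samples) against abundance (horizontal log axis, mean RPM) for 2278 contigs, with 5 gene groups coloured and the median of all contigs dashed at 106 nt. The mitochondrial mRNAs lie at 54.0 to 71.3 nt, the 6 elongating spermatid markers at 122 to 168 nt and the 5 P/D markers at 119 to 160 nt.

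Transcripts of the protein synthesis machinery covered a wide range of tails, with ribosomal proteins at the short end. Counts of calls in the lists from here on are to be set beside the 28.9% longer and 25.2% shorter of all contigs. These shares do not allow for depth. Calls in either direction made up 54.1% of all contigs and 71.9% of those with 100 reads in every sample. Depth differed between lists, with a median of 577 RPM for cytosolic ribosomal proteins, 163 for splicing factors and 184 for all contigs. For cytosolic ribosomal proteins 2 of 100 measured transcripts were called longer and 86 shorter, with a median of 82.9, 83.3 and 81.9 nt and Rps19 as the shortest. Rplp0, the stalk protein with most reads of the group, had 91.1 ± 2.03 nt. One of those called longer was an isoform of Rpl22l1, a paralog of Rpl22, at 122 ± 3.36 nt. Ribosomal protein reads can be split with processed pseudogenes, so single values are uncertain. Of translation factors 9 of 33 measured transcripts were called longer (27.3%, near the share of all contigs) and 14 shorter (42.4%), with a median of 97.8 nt. Of the subunits of eIF3, the scaffold of the preinitiation complex, Eif3g had 75.3 ± 2.54 nt and Eif3k 93.6 ± 3.81 nt, both called shorter, and Eif3b 123.4 ± 6.54 nt, called longer. Eif2b1, of the exchange factor for eIF2, was shortest at 66.6 ± 11.1 nt over only 22, 26 and 28 reads. The helicase gene Eif4a2 was longest at 160.1 ± 10.4 nt, and Eif5 had 144 ± 8.58 nt. The elongation factor Eef1a1, the most abundant, had 97.7 ± 3.16 nt.

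Energy metabolism had short tails in the respiratory chain and a mixture in glycolysis. None of the 72 measured transcripts for nuclear respiratory chain subunits was called longer and 45 were called shorter, with a median of 92.6, 92.04 and 94.3 nt. Atp5k, an ATP synthase subunit, was shortest at 71.0, 82.7 and 71.1 nt, while Cox8c, a testis form of a cytochrome oxidase subunit and the most abundant of the group, had 108 ± 3.63 nt and the isoform of Cox6b2 at the top 118 ± 7.08 nt, neither of them called. Of glycolysis and lactate transcripts 5 of 15 measured transcripts were called longer (33.3%) and 2 shorter (13.3%), with a median of 107 nt. Over all contigs the shares were 28.9% and 25.2%. Pgk2, the autosomal retrogene of phosphoglycerate kinase, had 136, 152 and 141 nt and Slc2a3 the values above, whereas Ldhal6b, another lactate dehydrogenase retrogene, had 88.8, 88.1 and 90.8 nt.

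Among genes of protein folding and turnover, the proteasome and the CCT chaperonin had more shorter than longer calls, and ubiquitin conjugation had more longer ones. For the proteasome 2 of 28 measured transcripts were called longer and 11 shorter, with a median of 97.7 nt. The longer pair was Psma8, the alpha subunit of the testis proteasome, at 130.4, 144 and 138 nt and Psme4, the activator PA200, at 139.5, 124 and 133 nt. Psmd14, a deubiquitinase of the lid, was shortest at 82.8 ± 1.96 nt, and Psmc3, the most abundant, had 98.5 ± 2.06 nt. For the CCT chaperonin 1 of 12 measured transcripts were called longer and 5 shorter, with Cct4 shortest at 88.3 ± 3.75 nt, Tcp1 most abundant at 99.7 ± 1.47 nt and Cct6b, a testis paralog of Cct6a, the one called longer at 116 ± 4.01 nt. For the HSP70, HSP90 and HSP110 list 4 of 12 measured transcripts were called longer and 4 shorter, shares near the 28.9% and 25.2% of all contigs. Hspa2, the HSP70 of spermatocytes, reached 138 ± 3.598 nt in its more abundant transcript and 140.0 ± 8.91 nt in the other, against 86.6 ± 6.095 nt for the mitochondrial Trap1 and 97.3 ± 2.15 nt for Hsp90aa1. For ubiquitin conjugation 11 of 26 measured transcripts were called longer and 5 shorter, from Ube2k at 92.5 ± 8.13 nt, not called, to Usp32 at 146 ± 14.5 nt.

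Meiotic chromosome and division genes had both kinds of tail. Of synaptonemal complex, cohesin and recombination transcripts 4 of 9 measured transcripts were called longer and 2 shorter. Sycp2 and Sycp3, partners in the lateral element, had 165.1, 155 and 162 nt and 143, 131 and 129 nt, whereas Syce3, of the central element, had 80.6, 79.6 and 72.4 nt. Sycp2 rested on 22, 47 and 37 reads. Of meiotic division transcripts 7 of 13 measured transcripts were called longer and 3 shorter. Their median was 127, 109 and 111 nt in replicates 1, 2 and 3, against 107, 104 and 106 nt over all contigs, so it depended on the replicate. Those called longer included Ccna1, a meiotic cyclin, at 138, 137 and 133 nt, the kinase Cdk1 at 129 ± 18.04 nt, Ccnb2 at 119 ± 9.30 nt and its partner Cks2 at 126 ± 7.001 nt. They also included Pttg1, securin, at 136 ± 4.27 nt and Cdc20, an activator of the anaphase-promoting complex, at 135 ± 2.50 nt. The kinase genes Aurka and Nek2 and the chromosomal passenger Birc5 were called shorter, at 86.1 ± 7.73 nt, 87.6 ± 9.72 nt and 90.3 ± 8.93 nt. Aurka lay at 92.6, 77.5 and 88.1 nt, below every value of Ccna1.

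Genes of the piRNA pathway and of germ granules had more longer than shorter calls. In that list 10 of 15 measured transcripts were called longer and 1 shorter, with a median of 127, 119 and 120.3 nt. Piwil1 was longest, and Pld6, the mitochondrial nuclease of piRNA biogenesis, had 142 ± 1.39 nt. The Tudor protein genes Rnf17, Tdrd6, Tdrd5 and Tdrd7 had 137 ± 15.3 nt, 130.1 ± 17.03 nt, 128 ± 8.40 nt and 123.04 ± 11.9 nt, and the helicase Ddx4 129 ± 10.3 nt. Gtsf1, a PIWI-interacting zinc finger protein, was the single one called shorter, at 90.2, 92.6 and 89.0 nt, and Mael, the most abundant, had 104 ± 3.32 nt without a call. Of RNA-binding translation regulators 9 of 16 measured transcripts were called longer and 0 shorter. Boll was longest and Khdrbs3 shortest at 93.1 ± 3.89 nt (adjusted p = 0.091), and Ybx1, the most abundant, had 108 ± 1.95 nt. Meioc, a partner of the meiotic RNA helicase Ythdc2, reached 156, 129 and 151 nt.

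Histone and splicing genes also had more longer than shorter calls, while the share of longer calls among transcription regulators was close to that of all contigs. For histones, HMG proteins, transition proteins and protamines 12 of 14 measured transcripts were called longer and 0 shorter, with a median of 121, 123.2 and 124 nt. H2afz, the H2A.Z variant with most reads, had 120.5, 109 and 124 nt, and Hmgb2 142, 139.9 and 124 nt. Prm2 was longest at 141, 134 and 136 nt and H1fx shortest at 104 ± 7.84 nt, not called. Prm1, Tnp1 and Tnp2, which are also on the elongating spermatid list, had 128 ± 3.56 nt, 122 ± 8.12 nt and 132 ± 0.55 nt. Leaving these 4 aside, 8 of 10 were still called longer. Of meiotic transcription regulators 5 of 15 measured transcripts were called longer (33.3%, against 28.9% of all contigs) and 0 shorter (25.2% of all contigs). Tcfl5 was longest, Phf7 most abundant at 117 ± 3.09 nt and Gtf2a1l shortest at 99.4 ± 1.60 nt. Of splicing factors 11 of 22 measured transcripts were called longer (50%) and 3 shorter (13.6%). Within them the spliceosomal Snrpc and Snrpd2 were short at 85.2 ± 5.71 nt and 90.01 ± 3.41 nt while Hnrnpa2b1 reached 160.3 ± 7.22 nt. Of zinc finger genes 3 of 10 measured transcripts were called longer and 2 shorter, close to the 28.9% and 25.2% of all contigs, from Zfp956 at 80.7 ± 7.80 nt over Zfp35, the most abundant, at 105 ± 8.28 nt to Zfp654 at 151 ± 14.3 nt.

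Genes for the acrosome had mostly longer calls, and genes for the flagellum were called in shares close to those of all contigs. Of acrosome and fertilization transcripts 13 of 17 measured transcripts were called longer and 1 shorter, with a median of 127, 119 and 126 nt. Dkkl1, an acrosomal protein and the most abundant, had 114, 110.2 and 111 nt, Adam2, the partner of sperm ADAM proteins, 128, 119 and 131 nt, and Clgn, a chaperone for such proteins, 142 ± 7.49 nt, while Ly6k was shortest at 78.2 ± 4.67 nt. 10 of the 17 had higher RPM here than in RS. Of axoneme and flagellum transcripts 18 of 62 measured transcripts were called longer and 15 shorter, that is 29.03% and 24.2% against 28.9% and 25.2% of all contigs, with a median of 108 nt that lay near the 106 nt of all contigs. Within that list the radial spoke genes Rsph3b and Rsph3a were shortest, at 78.8 ± 1.60 nt for the less abundant isoform of Rsph3b, and the dynein heavy chain gene Dnah17 and the flagellar Cfap65 were long, at 144 ± 14.4 nt and 164 ± 12.1 nt. All 6 measured elongating spermatid markers were called longer, against 28.9% of all contigs. Their median was 137, 133 and 134 nt, with 69.8% of reads in the long class as the median. The 5 P/D markers were likewise all called longer, at a similar median of 142, 131 and 125 nt, but with 40.7% of reads in the long class. None of the 6 elongating spermatid markers was more abundant here than in RS, and Prm1 had 615 ± 53.4 RPM against 8098. Spata16, the single gene of the round spermatid list measured, was called shorter at 93.6, 86.8 and 91.0 nt, and had 437 ± 79.3 RPM here against 351 in RS. The 8 contigs of testis-specific serine kinases held 29 to 66 reads per sample in sum and none reached 20 reads in every sample.

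The remaining lists were small. Of solute carriers 7 of 17 measured transcripts were called longer and 0 shorter, from Slc9b1 at 102 ± 18.3 nt to the intron-retaining isoform of Slc2a3 at 159 ± 5.50 nt. Of autosomal retrogenes 2 of 15 measured transcripts were called longer and 3 shorter, with Pgk2 longest and Ldhal6b shortest. Of transcripts for poly(A) tail enzymes and binding proteins 2 of 9 measured transcripts were called longer (22.2%) and 3 shorter (33.3%), against 28.9% and 25.2% of all contigs. Papolb, the cytoplasmic poly(A) polymerase of germ cells, was longest at 136, 141 and 131 nt, and Pabpc1, the main cytoplasmic poly(A)-binding protein, had 122, 109.6 and 111 nt. Sympk, a scaffold of the cleavage complex, was shortest at 84.3 ± 6.91 nt, over 21, 46 and 30 reads. The tubulins Tuba3a and Tuba3b were described above, and Tubb4b, the shortest of the 3 measured, had 108 ± 5.18 nt and was not called. Across all these lists the median to compare with is 107, 104 and 106 nt, and the lists share members.

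**Figure D4:**
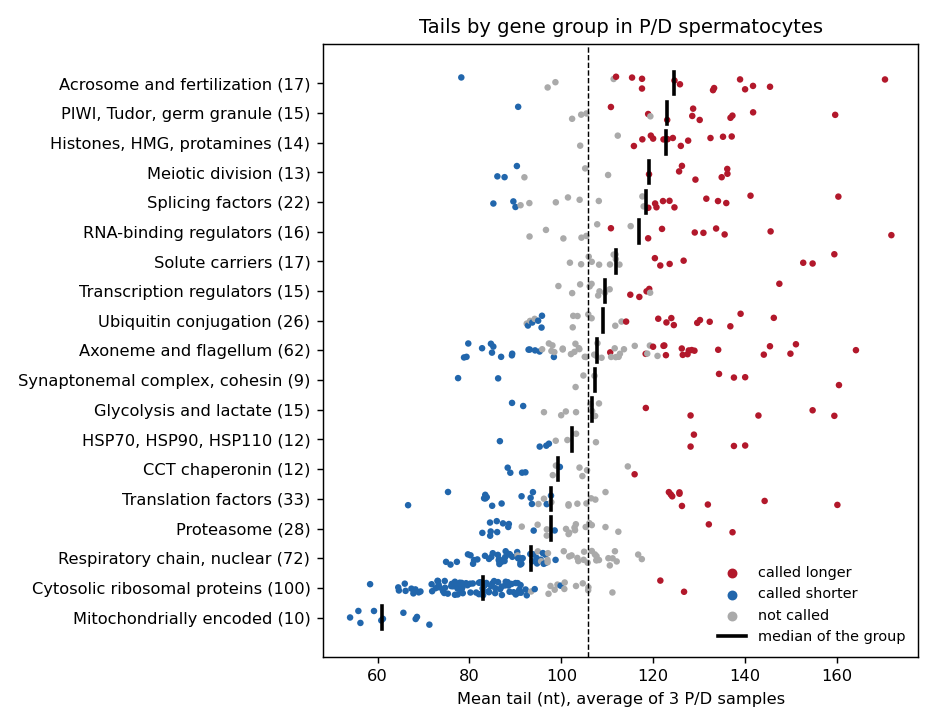
Mean tail (horizontal axis, nt, average of 3 P/D samples) of each measured transcript in 19 gene groups, with the number of transcripts in brackets, black bars at group medians, and the median of all contigs dashed at 106 nt. Group medians run from 60.98 nt for mitochondrially encoded mRNAs to 125 nt for acrosome and fertilization.

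Isoforms of the same gene could carry different tails. The 2 most abundant transcripts of each of 243 genes were compared within each sample with limma, and 20 pairs differed (8.23% of those tested, adjusted over all pairs), with the more abundant isoform longer in 7 and shorter in 13. These counts rest on few samples. Without replicate 1 they were 1 and 4, without replicate 2 they were 1 and 3, and without replicate 3 they were 10 and 18. The median absolute difference over all pairs was 6.36 nt. In Rpl19 the more abundant transcript had 64.6 ± 2.16 nt against 105 ± 5.28 nt for the less abundant one (-40.0 ± 6.45 nt, adjusted p = 0.011), Fkbp1a, the FKBP12 prolyl isomerase, 131 ± 7.73 nt against 167 ± 5.14 nt, Ppia, cyclophilin A, 93.0 ± 6.60 nt against 129 ± 4.84 nt, and Acrbp, the binding protein of proacrosin, 115 ± 3.28 nt against 145 ± 8.34 nt. The samples of the pair did not overlap in any of these 4. In the other direction Cep63, a centriole duplication gene, had 142 ± 8.35 nt against 101 ± 13.6 nt (40.9 ± 8.66 nt, adjusted p = 0.03), Tmsb10, a beta-thymosin, 113 ± 2.24 nt against 88.1 ± 4.35 nt (25.3 ± 2.15 nt, adjusted p = 8.4e-04), Sh3glb1, endophilin B1, 133 ± 0.566 nt against 114 ± 1.93 nt, Odf2, an outer dense fibre gene, 128 ± 3.03 nt against 111 ± 5.33 nt, and Smpd5 120.2 ± 4.65 nt against 105 ± 2.30 nt. Reads that end before the parts that tell isoforms apart may be placed on either, so these values describe the authors' assignment.

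Pairs that differed were found both among isoforms with shared and with separate annotated ends. In 165 pairs the annotated 3′ ends lay within 50 nt of each other, and 12 of these (7.27%) were called. In the 78 pairs with ends farther apart 8 (10.3%) were called, and the median absolute differences were 6.24 and 6.68 nt. In Rpl19 the annotated ends were at the same base.

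**Figure D5:**
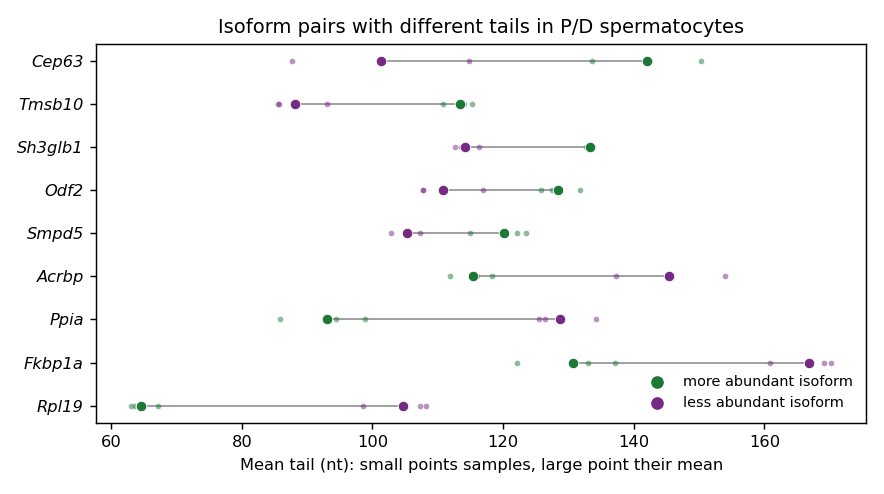
Mean tail (horizontal axis, nt) of the more and the less abundant isoform of 9 of the 20 genes whose pair differed in P/D spermatocytes, those named in the text, with small points for the 3 samples, large points for their mean and a line joining the pair. Rpl19 spans a gap of -40.0 nt for the more minus the less abundant isoform.

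Median tails were higher on longer transcripts in each sample. When annotated transcripts were ordered by length and divided into 5 equal groups, the median tail in replicates 1, 2 and 3 was 119, 113 and 116 nt against 96.3, 97.3 and 96.3 nt for the longest and the shortest group, whose median lengths were 4380 and 740 nt. The difference was 19.5 ± 3.46 nt (SD, n = 3) and had the same sign in all 3 samples (p = 0.25 by an exact two-sided permutation of signs, below which 3 samples cannot go). The median of the 5 groups, from short to long transcripts, went from 97.4 over 105, 106 and 108 to 116 nt. The other features were compared in the same way and have the same smallest p. Coding length gave 13.6 ± 4.46 nt and 3′ UTR length 12.8 ± 2.02 nt between the top and the bottom of 5 groups, and GC content gave -12.3 ± 2.45 nt. The most abundant of 5 groups had tails -6.26 ± 1.76 nt from those of the least abundant one. Without the mitochondrially encoded, ribosomal protein and respiratory chain transcripts, a choice made after their values were seen, the difference was 14.1 nt by transcript length and -2.77 nt by abundance. With 50 reads in every sample the difference by GC content was -4.35 nt.

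Differences by letters near the 3′ end varied in size with the motif, and were smallest for AATAAA and ATTAAA. The signal AATAAA was found in the last 40 nt of 62.6% of 2228 transcripts with a complete annotated end, against 59.6% of all annotated transcripts of the files, and median tails were 3.79 ± 1.49 nt longer with it than without. Its variant ATTAAA was in 17.1% (16.9% of all) and gave -1.14 ± 0.33 nt, whose sign turned to 1.70 nt with 50 reads in every sample, where AATAAA gave 1.99 nt. In the last 150 nt, TTTTAT, with the letters of a cytoplasmic polyadenylation element, and its form TTTTAAT were in 14.0% and 4.399% of transcripts and went with 7.39 ± 1.70 nt and 11.5 ± 1.93 nt, the second falling to 5.71 nt with 50 reads in every sample. The share among all annotated transcripts was 15.7% and 5.64%. TGTANATA, the Pumilio motif, was in 4.58% (5.01% of all) with 9.63 ± 3.35 nt, and TATTTAT, of AU-rich elements, in 4.13% (5.16% of all) with 6.53 ± 2.19 nt. The difference with minus without the motif was positive in each sample for each motif but ATTAAA. Motifs were counted on the transcript strand and may overlap one another. The reverse complements occurred in 5.30% for AATAAA and 34.1% for TTTTAT. By annotated biotype, 19 intron-retaining transcripts were 11.2 ± 0.778 nt longer in median than protein-coding ones and 23 transcripts marked for nonsense-mediated decay 8.65 ± 1.45 nt, while 47 processed transcripts differed by 0.695 ± 0.558 nt.

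Few reads came from the sex chromosomes, which are silenced in pachytene by meiotic sex chromosome inactivation. X-linked contigs held 0.118, 0.152 and 0.0877% of reads and Y-linked ones 0.0254, 0.0441 and 0.0151%, against 2.53, 2.21 and 3.00% for the mitochondrial genome. Of 224 X-linked contigs only Tsga8, a gene of haploid germ cells, had 20 reads in every sample, with 24, 46 and 28 reads and a mean tail of 139, 131 and 115 nt. It had 117 ± 28.7 RPM here and 1002 in RS. Autosomal contigs held 95.5, 95.8 and 95.1% of reads, and 2221 of 11052 had 20 reads in every sample. The authors kept contigs with enough reads in replicates of 1 condition, so an X-linked contig may be listed for its RS reads alone.

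Contigs of repeat elements were few but included the longest tail of all. RMER15_dup6379, named after an LTR element, had 217, 235 and 208 nt over 54, 61 and 69 reads, with 54.3% of its reads at 210 nt or more. A second copy of the family, RMER15_dup14114, had 184, 159 and 192 nt. Of the 19 contigs, 9 were called longer and 5 shorter, to be set beside 28.9% and 25.2% of all contigs. The shortest was MER5A_dup7811, named after a DNA transposon, at 76.4, 84.5 and 65.2 nt over 22, 27 and 27 reads, below every value of both RMER15 copies. No positions of these contigs were used here, and whether the reads come from genes that hold the element was not tested.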

How the data were processed

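Direct RNA sequencing was done on 3 P/D and 3 RS samples, each group multiplexed in 1 library. The deposited count tables hold raw read counts per contig. The deposited tail table holds, per read, the sample, the contig and the poly(A) tail length in nt that the authors estimated with Nanopolish, keeping reads that passed its quality filter (these lengths are recorded as another unit, neither a count nor a log value). The authors basecalled with Guppy, demultiplexed with Deeplexicon and aligned with minimap2 (2.20-r1061 in the submitters' processing notes, which also list SAMtools, DESeq2 and build mm10) to GENCODE transcripts and repeat elements, and kept contigs with enough reads in replicates of 1 condition. Reads shorter than a transcript can fall on another isoform or near-identical copy.

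Here reads were counted per contig and sample, and mean tails were computed for contigs with 20 or more reads in each P/D sample. Tail classes included the lower and not the upper bound. Tails were tested with limma 3.58.1 in R 4.3.3 (intercept, eBayes with a trend on reads, Benjamini-Hochberg, 0.05). On simulated data the test recovered 158 of 200 contigs shifted by 20 nt and 199 of 200 shifted by 40 nt, of 2278, with 11 and 7 other calls. There every contig drew its reads from 1 pool of all P/D reads, with a small between-sample spread set by hand. Only 200 contigs were shifted, far fewer than were called in the data, so these counts do not give the error of the calls above. P-values and SE measure only the spread between 3 pooled samples of 1 library, moderated by limma over all contigs. For a transcript with a wide spread, such as Ptpn20, both are smaller than its own 3 values alone would give. Transcript features came from GENCODE vM21 on GRCm38, in which 11344 of 11517 annotated contigs were found. Named transcripts were those with most reads, the longest, shortest, most and least variable tails, the largest called isoform differences, the given markers, and the most abundant, longest and shortest of each list, with further list members named after their values were seen; a few that this rule names are not reported here. The members and lists were chosen with earlier results of these data known. Alternatives were other read minimums, centres, bounds and tail summaries, no trend, weights by reads, reads on 1 contig, and each replicate left out.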

Additional observations from a re-analysis of the deposited data

How the results depend on the processing

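No paired analysis was possible because only the P/D samples enter every fit. The counts of longer and shorter contigs were 659 and 573, and leaving out 1 replicate gave 580 to 607 longer and 497 to 518 shorter. With 50 reads in every sample they were 314 and 303, with 10 reads 867 were shorter, and against the median over reads they were 1269 and 149. That centre turned the sign for Ubb (0.21 nt), Mael (11.8), Eef1a1 (5.22), H1fx (11.6), Psmc3 (6.02), Zfp35 (12.1), Hsp90aa1 (4.76), Meig1 (9.12), Tcp1 (7.15) and Lx3B_dup3459 (1.76), and median tails turned Meig1 (0.17). Of the other values for named transcripts 1597 kept direction and side of the threshold, 35 passed it newly and 60 no longer passed. Isoform counts, longer and shorter, were 13 and 21 with 10 reads and 1 and 7 without the trend, 24 were shorter by median tails, and leaving out 1 replicate gave 1 to 10 longer and 3 to 18 shorter. The short and long classes were 45.6% and 23.2% with bounds 30-90 and 120-180 nt and 51.3% and 35.6% with 40-110 and 110-220 nt. With contigs weighted equally the classes, mean and median were 51.1%, 36.3%, 122 nt and 106 nt, over contigs with 20 reads 63.6%, 28.2%, 104 nt and 88.8 nt, and over contigs higher in P/D spermatocytes than in RS 63.7%, 27.2%, 104 nt and 87.8 nt.

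Differences by feature with 50 reads in every sample were 15.98 nt for 3′ UTR length, -4.35 for GC, 1.99 for AATAAA, 1.70 for ATTAAA, 5.71 for TTTTAAT, 13.7 for TGTANATA, 6.19 for transcripts marked for nonsense-mediated decay, 9.73 for retained introns and 1.399 for processed transcripts. Over contigs higher in P/D spermatocytes they were 16.1 for 3′ UTR length, -9.78 for GC, 0.0328 for ATTAAA, 12.99 for retained introns and 1.39 for processed transcripts. Without mitochondrially encoded, ribosomal protein and respiratory chain transcripts, chosen after seeing the data, they were -2.77 for abundance, 14.1 for transcript length, 8.54 for 3′ UTR length, -2.38 for ATTAAA, 6.69 for nonsense-mediated decay, 9.28 for retained introns and -1.06 for processed transcripts. In the last 60 nt ATTAAA gave -0.686. List medians minus that of all contigs, with 50 reads, were 27.5 nt for elongating spermatid markers and 22.8 for meiotic division. These values rested on only 4 of 6 and 3 of 13 measured transcripts. All 13 of meiotic division gave 10.2 ± 8.83 nt (SD, n = 3). With 50 reads the differences were -42.3 for mitochondrially encoded, -10.4 for respiratory chain and 21.4 for histones and HMG. By median tails they were 39.3 for P/D markers, 50.1 for elongating spermatid markers, -32.7 for mitochondrially encoded, -11.3 for respiratory chain and 23.3 for histones. Over transcripts higher in P/D spermatocytes, added after seeing the data, they were 19.99 for meiotic division, -42.4 for mitochondrially encoded, -20.9 for ribosomal proteins, -10.7 for respiratory chain and 19.4 for histones. Under the centre over reads 19 calls passed the threshold in the opposite direction, and under the other settings none did. At 20 reads a contig's mean has an error that hides differences of a few nt.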

Other observations

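Mean tails of some paralogs lay apart in the same P/D samples. These pairs were chosen after their values were seen and have no test, and each value is the difference of mean tails, the gene named first minus the other, in replicates 1, 2 and 3. Cct6b, a testis subunit of the CCT chaperonin, lay 37.6, 17.4 and 26.2 nt above Cct6a, and Eif1b, an initiation factor paralog, 17.9, 16.7 and 20.2 nt above Eif1. The helicase gene Eif4a2 lay 47.2, 26.2 and 35.3 nt above Eif4a1. Among PIWI proteins Piwil1 lay 30.1, 45.9 and 44.7 nt above Piwil2. All samples of these 4 pairs had the same direction. Cct6a, Piwil2 and Eif4a1 had at most 152, 94 and 115 reads over the 3 samples together. Their mean tails had an SD between samples of 13.2, 8.41 and 1.81 nt, so the size of these differences is uncertain.

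Other pairs went the opposite way or showed no shared direction. The poly(A)-binding protein retrogenes Pabpc2 and Pabpc6 differed from Pabpc1 by -29.3, -11.7 and -17.9 nt and by -31.9, -27.7 and -26.8 nt. Ldhc and Ldha, the germ-cell and the widely expressed lactate dehydrogenase, had 106 ± 0.419 nt and 107 ± 1.62 nt (SD, n = 3), and their difference changed sign between samples. Rps27l and Rps27 differed by 9.34, -1.80 and 22.8 nt. For Psma8, Pgk2, Rpl10l and Papolb, at 137, 143, 106 and 136 nt, the paralog had under 20 reads in at least 1 sample and was not measured here.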
